A study of Mus musculus with 77 samples.

Results

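The cells described here are the no-color cells of pancreatic ductal organoids, that is, cells sorted without the fluorescent reporter from organoids in which their neighbours expressed either wild-type Ngn3 (WT) or 6S-A Ngn3. They make up 12 of the 77 libraries of the series, 6 from WT and 6 from 6S-A organoids, all at 8 days, and were chosen by the column names of the deposited count table. Each group holds 3 biological replicates, of which replicate 1 was sequenced as 3 technical repeats, replicate 2 as 2 and replicate 3 as 1. The organoids came from the pancreatic ducts of C57BL/6 mice and were infected with a Tet-on pair of lentiviral vectors, one for the transactivator and one for GFP joined through a 2A peptide to HA-tagged Ngn3. Both no-color groups therefore come from organoids infected and induced by the same method, with the same reporter. The organoids received different Ngn3 vectors, so the Ngn3 protein of the GFP-positive cells and any difference between the infections cannot be told apart. Replicates 1 and 2 were of organoid passage 2 and replicate 3 was of passage 5 in every group. The sources describe the sort of pools of 50 GFP-positive cells. The gate of the no-color cells, and whether they carried a silent vector, are not given in the sources used here. The comparison asks whether reporter-negative cells differ with the form of Ngn3 in the organoid around them.

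Ngn3, encoded by Neurog3, is a basic helix-loop-helix transcription factor that commits ductal progenitor cells of the pancreas to the endocrine lineage. A cell with high Ngn3 presents Notch ligands such as Dll1 to its neighbours, and the Notch receptors of those neighbours switch on repressors such as Hes1, which keep Ngn3 low and leave the neighbours ductal. Cells that leave the ductal state also secrete hormones and growth factors, so a neighbour can in principle sense the form of Ngn3 next to it through contact or through secreted ligands.

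The 6S-A protein differs from WT at 6 sites where a serine is followed by a proline, each serine having been changed to alanine. The coding sequence of mouse Neurog3 (GRCm38, chromosome 10, 62133090 to 62134763, plus strand, 645 coding bases and 214 codons before the stop, GENCODE M21) is shown because these sites are the designed difference between the organoids compared. The stretches of the unmutated gene that hold them are codons 12 to 41 and codons 158 to 202, counted from the start codon, with capitals for each serine codon and the proline codon after it.
Neurog3, first stretch: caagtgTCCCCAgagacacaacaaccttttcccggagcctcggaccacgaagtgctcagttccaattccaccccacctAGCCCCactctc
Neurog3, second stretch: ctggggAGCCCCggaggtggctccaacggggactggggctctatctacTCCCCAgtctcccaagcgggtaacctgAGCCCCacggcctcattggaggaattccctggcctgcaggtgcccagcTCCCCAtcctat
The marked serine codons are numbers 14, 38, 160, 174, 183 and 199. Reads from the vector and from the endogenous gene are counted together in the deposited table, and the gene overlaps the antisense gene Fam241b.

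The no-color libraries held between 2397470 and 9202142 reads on genes and between 15592 and 17150 detected genes. One library stood apart from the rest, the single library of no-color WT replicate 3. It had the fewest reads on genes, 36.0% of its reads were not aligned against 16.7% to 24.4% in the other 11, and 17.9% of its reads on genes were mitochondrial against 3.08% to 9.40%. Its correlations with the other no-color libraries, on log2 CPM (counts scaled to the library total), ran from 0.836 to 0.891, while those among the other 11 ran from 0.901 to 0.954. Summed per biological replicate, the share of reads that did not align was higher in WT in 3 of 3 pairs (22.1%, 24.2% and 36.0% against 18.4%, 21.6% and 24.2% in 6S-A). The mitochondrial share was also higher in WT in each pair, at 5.73%, 8.00% and 17.9% against 4.22%, 7.89% and 8.16%. Of 7 such measures compared, none could pass, since an exact two-sided permutation test of 3 against 3 cannot go below p = 0.1. Their exact p-values ran from 0.2 to 0.9, and the adjusted values from 0.84 to 0.9. Where leaving out this library changed a gene list's count at an unadjusted p of 0.05, the count without it is given beside the list. Without it the list medians of Notch receptors and effectors, ductal keratins, S phase, TGF-beta and BMP, interferon, glycolysis, sterol synthesis and secreted ligand genes changed sign, and these medians lay between -0.19 and 0.18 with or without it. The part of RNA quality in the differences was not tested.

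**Figure D1:**
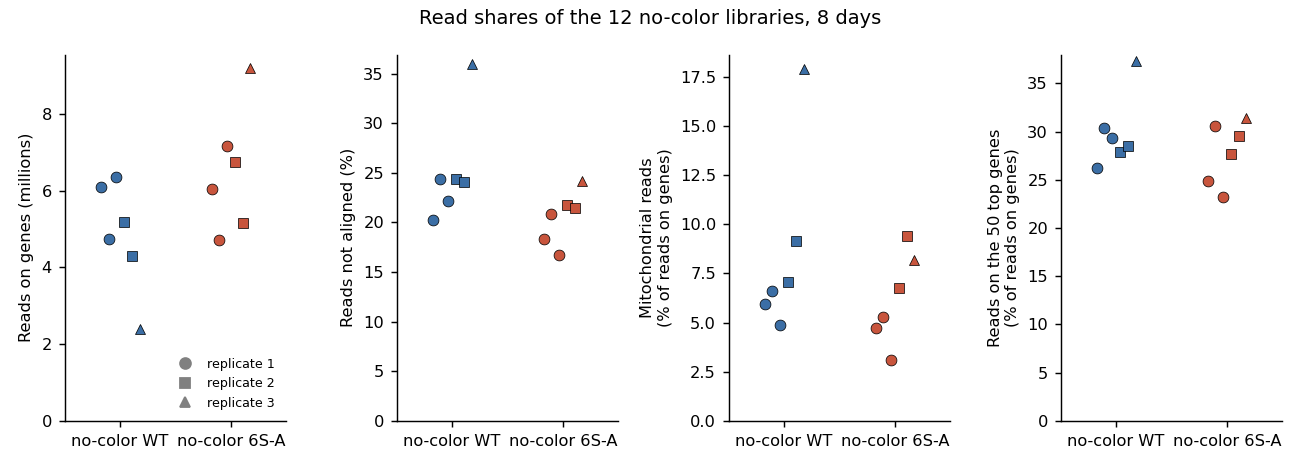
Reads on genes and 3 read shares in percent for each of the 12 no-color libraries, with the replicate shown by the symbol and the group by colour. The single library of WT replicate 3 lies apart, at 36.0% not aligned and 17.9% mitochondrial reads.

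The no-color cells carried the markers of duct cells. All 10 ductal markers fixed for the check had over 3 reads in 5 of the 6 samples, and 9 of 10 in WT replicate 3, where the chloride channel gene Cftr had 0 reads. The summed ductal level was 36264, 26670 and 12133 CPM in WT and 30232, 35073 and 28515 in 6S-A, so WT replicate 3 was lowest and the others overlapped. Acinar markers were 7 of 8 at 0 in all 6 samples, with reads on Cela1 alone. Among the 7 mesenchymal markers of the check Col3a1, Pdgfra, Pdgfrb and Dcn were at 0, and the summed level ran from 1.58 to 3.75 CPM in WT and from 0.217 to 0.614 in 6S-A. In WT it came mostly from Acta2, and in 6S-A replicate 1 from 7 reads of Col1a1 and 4 of Acta2. Immune markers summed to between 3.59 and 14.9 CPM, nearly all from Cd68, with Tyrobp and Laptm5 at 0. Of 4 endothelial markers of the check (Pecam1, Cdh5, Kdr and Emcn) the summed level did not exceed 0.349 CPM. In pooled cells, fewer cells of a type and less RNA per cell cannot be told apart.

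Neurog3 itself was close to absent from the no-color cells of both organoids. It had 6, 2 and 0 reads in WT replicates 1 to 3 (0.358, 0.211 and 0 CPM) and 6, 11 and 0 reads in 6S-A (0.348, 0.947 and 0 CPM). In the GFP-positive cells of the same organoids the values were 6.69, 43.9 and 13.7 CPM for WT and 9.5, 12.2 and 14.3 CPM for 6S-A, and no GFP-positive sample overlapped a no-color sample. The difference between GFP-positive and no-color cells was 5.51 ± 0.66 on the log2 scale (SE, edgeR quasi-likelihood test, adjusted p = 4.13e-05), in a comparison in which 5.66% of 19696 genes passed at an adjusted p of 0.05, 3.31% with higher and 2.36% with lower values in GFP-positive cells. Between the no-color groups Neurog3 differed by 0.53 ± 0.98 (adjusted p = 0.884). A count of 3 reads corresponds to between 0.167 and 1.25 CPM in the 6 samples when CPM are taken without TMM. The 95% interval of the difference ran from -1.53 to 2.59 on the log2 scale, so differences within that range are compatible with these values.

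The genes that mark the response to Ngn3 were also at few reads in these cells, apart from Sst. Neurod1, a basic helix-loop-helix factor downstream of Ngn3, had between 0 and 7 reads in each of the 6 samples, and Insm1, a zinc-finger endocrine factor, between 0 and 5. Atoh8 had 1 read in all 6 samples together and Tff3, a trefoil peptide, had 2. Rfx6, needed for islet cell formation, had between 0 and 6 reads. The hormone gene Sst gave 140, 23 and 7 reads in WT and 99, 14 and 18 in 6S-A (8.36, 2.42 and 3.88 against 5.74, 1.21 and 2.15 CPM). Sst was lower in 6S-A in each pair, yet the fitted difference was 0.04 ± 3.31 (adjusted p = 1.00), an error that allows large changes either way. The sign of the fitted difference of Sst changed in 16 of 25 alternative fits, among them those of the no-color libraries alone. Of 19 Ngn3 targets and endocrine transcription factors, 17 were tested and 0 reached an unadjusted p of 0.05. Among all genes 6.42% did so with higher and 5.84% with lower values in 6S-A. The best expressed were Pdx1 (13.7, 11 and 9.42 CPM in WT, 25.9, 9.81 and 14.7 in 6S-A) and Rfx3, a factor for cilia (12.7, 30.6 and 13.8 against 16.7, 14.9 and 5.97), and both groups overlapped for each.

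**Figure D2:**
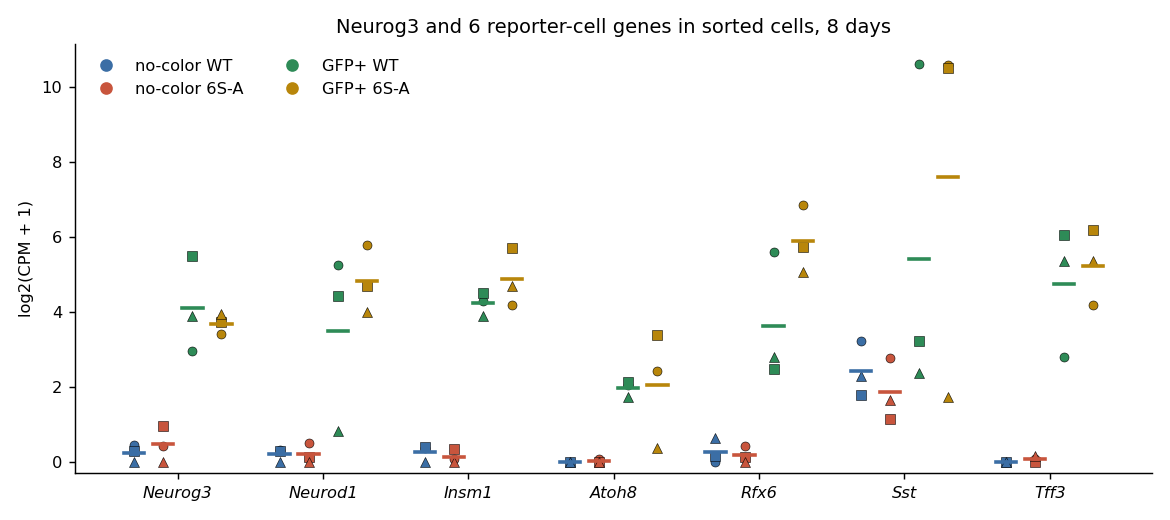
Levels of Neurog3 and of 6 genes of the endocrine program on the log2(CPM + 1) scale in the 3 replicates of the 4 groups of 8 days, with circles, squares and triangles for replicates 1 to 3 and bars at the means. For Neurog3 the no-color samples lie between 0 and 0.947 CPM and the GFP-positive samples between 6.69 and 43.9 CPM.

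Across all genes, none separated the no-color cells of 6S-A from those of WT organoids past the threshold in the analysis fixed for it (edgeR quasi-likelihood test, the 4 groups of 8 days fitted together with the replicate number as a block). At an adjusted p of 0.05 the count was 0 of 19696 genes, with a smallest adjusted p of 0.224. At an unadjusted p of 0.05 there were 2414 genes (12.3%), 1264 with higher and 1150 with lower values in 6S-A. Of the 11076 genes with a mean of 5 CPM or more, 1120 were higher and 924 lower at that p, larger shares than among all genes. The percentages of all genes set beside lists below are thus low for lists of well expressed genes. DESeq2 with the same block called 586 genes, 189 higher and 397 lower in 6S-A. edgeR fitted to the no-color libraries alone, with the block, called 271 (1.38%), 85 higher and 186 lower, and 0 without the block. Leaving out no-color WT replicate 2 from the fit of all groups gave 631 calls, and leaving out no-color WT replicate 3 gave 0, with 741 higher and 550 lower at an unadjusted p of 0.05. The genes below are therefore described by their values, and none of them is a call of the main test. Fitted log2 differences are 6S-A minus WT.

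The precision of these values follows the level of the gene. For the 1950 genes at 100 CPM or more the median standard error of the log2 difference was 0.30, and its 95% interval reached a median of 1.54-fold to either side. For the 5663 genes under 1 CPM the median standard error was 1.87. In the class at 100 CPM or more, 13.6% of genes had a fitted difference of more than 2-fold, 71 of them with higher and 194 with lower values in 6S-A. Between 20 and 100 CPM this was 9.86%, with 257 higher and 311 lower.

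Among the 10 genes with the smallest p and higher values in 6S-A, every gene was higher in 6S-A in 3 of 3 pairs, and in all but Osgin1 the groups did not overlap. Zfp719 (GRCm38, chromosome 7, 43579610 to 43593235) had 22.8, 25.1 and 24.4 CPM in WT and 64.4, 81 and 66.6 CPM in 6S-A, so every 6S-A sample lay above every WT sample and the spread within each group was small. The fitted difference was 1.56 ± 0.31 (SE, n = 3, adjusted p = 0.224). Zfp867 (chromosome 11, 59461197 to 59472474) had 19.6, 7.80 and 7.20 CPM in WT and 37.2, 77.9 and 42.6 CPM in 6S-A, a difference of 2.19 ± 0.40. Genes of this family share zinc-finger repeats, and how reads with several alignments were counted is not given in the sources used here, so the assignment of reads to single members is uncertain.

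Cog1 (chromosome 11, 113649169 to 113667054), a subunit of the Golgi tethering complex, had 19.5, 8.75 and 15.5 CPM in WT and 52.5, 41.6 and 61.1 CPM in 6S-A. It was the 1 gene of these 10 whose single libraries did not overlap either. All 6 libraries of 6S-A (29.7 to 72.1 CPM) lay above all 6 of WT (4.64 to 24.9 CPM). Single libraries include technical repeats of the 3 replicates, and the genes were chosen by p in these samples. Such a separation, here and below, therefore adds no independent evidence. Tm9sf2, a membrane protein of the Golgi and endosomes, had 161, 304 and 107 CPM in WT against 451, 612 and 594 in 6S-A, and Mfsd14a, of the major facilitator transporters, had 22.6, 41.6 and 8.86 against 62.6, 94.8 and 101. Slc40a1, the iron exporter ferroportin, had 41.5, 39.7 and 33.2 CPM in WT and 93.3, 89.5 and 124 in 6S-A. In each of these the groups did not overlap, as was so for 7.55% of all genes tested with 6S-A above WT.

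The rest of the 10 were Pdcl, Serpinb9, Hace1 and Osgin1. Serpinb9, an inhibitor of granzyme B, had 30.7, 28.8 and 16.6 CPM in WT and 70.9, 197 and 38.9 in 6S-A. Hace1, a ubiquitin ligase, was at a low level throughout (1.73, 5.48 and 1.11 against 8.86, 33.0 and 10.4 CPM). Osgin1, a gene induced by oxidative stress, was higher in 6S-A in 3 of 3 pairs (98.6, 44.6 and 184 against 349, 115 and 360 CPM), although the groups overlapped, because replicate 2 was low in both.

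Of the 10 genes with the smallest p and lower values in 6S-A, 3 code for mitochondrial proteins, and in those and in the nucleotide-binding gene Hint1 WT replicate 3 was far above the other samples. Uqcrb, a subunit of respiratory complex III, had 49.3, 37.6 and 261 CPM in WT and 16, 28.5 and 32.6 in 6S-A. Mrpl34, of the mitochondrial ribosome, had 57.7, 53.5 and 281 against 20.3, 35.7 and 51.1, Hspe1, the mitochondrial chaperonin subunit, had 81.6, 80.9 and 359 against 31.6, 54.8 and 77.1, and Hint1 had 266, 236 and 1375 against 103, 174 and 251. WT was above 6S-A in 3 of 3 pairs for all 4. S100a6 (chromosome 3, 90612882 to 90624181), a small calcium-binding protein, followed the same order, with 463, 676 and 3171 CPM in WT and 132, 275 and 317 in 6S-A, a fitted difference of -2.33 ± 0.46.

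In other genes of this group WT replicate 3 was less far from the rest. Ccl20 (chromosome 1, 83116766 to 83119167), a chemokine, had 102, 36.3 and 49.8 CPM in WT and 22.7, 16.9 and 10.6 in 6S-A, a difference of -1.93 ± 0.47, and each of the 6 WT libraries (30.4 to 102 CPM) lay above each of the 6 of 6S-A (3.04 to 29.2 CPM). Pip4k2b (chromosome 11, 97715157 to 97744704), a lipid kinase, had 6.51, 13.9 and 11.6 CPM in WT and 0.695, 1.64 and 1.43 in 6S-A, a difference of -3.10 ± 0.73. Ptov1 had 53.7, 96.2 and 116 CPM against 33.1, 38.6 and 27.9. Both Pip4k2b and Ptov1 also separated the groups at the level of single libraries. Ybx3, an RNA-binding cold-shock protein, had 61.4, 91.5 and 202 CPM against 29.8, 37.8 and 45.8, and Arglu1 had 34.6, 59.2 and 124 against 17.6, 29.1 and 26.7. WT lay above 6S-A without overlap for 4.88% of all genes tested.

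**Figure D3:**
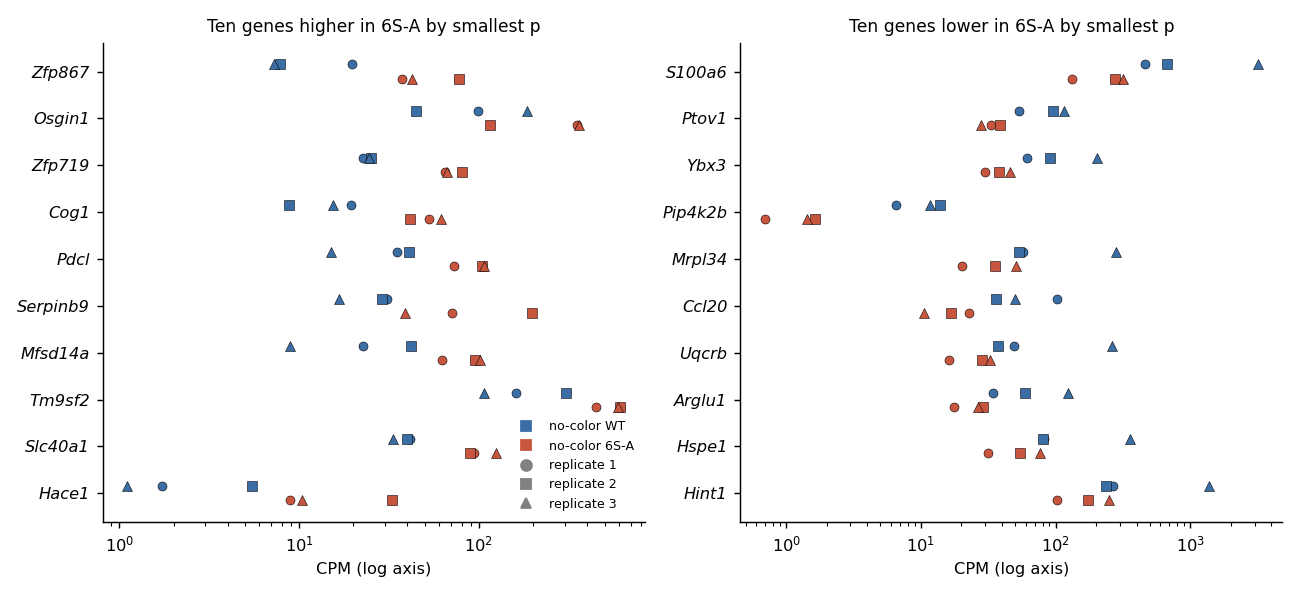
CPM on a log axis for the 10 genes with the smallest p in each direction, with 3 replicates of no-color WT and of no-color 6S-A. Zfp719 shows the tightest groups (22.8 to 25.1 against 64.4 to 81 CPM), and WT replicate 3 is the highest point for all genes lower in 6S-A except Pip4k2b and Ccl20.

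Lateral signalling through Notch is one way in which Ngn3-expressing cells act on neighbours. Of 12 Notch ligands and modulators 10 were tested, 0 reached an unadjusted p of 0.05, and the median log2 difference was 0.01 (0.15 without no-color WT replicate 3), beside 0.04 over all genes tested. The ligand Jag1 had 76.3, 87.9 and 70.9 CPM in WT and 64.6, 82.5 and 75.1 in 6S-A, a difference of -0.07 with a 95% interval of -0.69 to 0.54. Mib1, the ubiquitin ligase that activates ligands, had 32.1, 109 and 56.5 CPM against 46.0, 83.7 and 68.6. Numb, an inhibitor of Notch, had the smallest p of the list (28.8, 33.1 and 26.6 against 36.0, 46.6 and 46.2 CPM, with no overlap, 0.55 ± 0.32, adjusted p = 0.508).

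Of 14 Notch receptors and effectors 12 were tested, and their median difference was -0.04. The repressor Hes1 was the most variable, with 30.1, 257 and 1072 CPM in WT and 33.0, 270 and 36.4 in 6S-A. Only the third pair differed much, with WT replicate 3 highest. The fitted difference of -2.14 ± 1.22 was -0.08 without no-color WT replicate 3 and 0.06 without replicate 3 of all groups. Hey1, another Notch-responsive repressor, was higher in 6S-A in 3 of 3 pairs (2.69, 0.316 and 6.65 against 9.85, 4.39 and 28.4 CPM, 2.33 ± 0.84, adjusted p = 0.269). Notch2 was lower in 6S-A in each pair (59.9, 60.6 and 140 against 54.7, 48.0 and 43.3 CPM, unadjusted p = 0.0384). Hey1 and Notch2 were the 1 gene in each direction at an unadjusted p of 0.05, of 12 tested, beside 6.42% higher and 5.84% lower among all genes. Without no-color WT replicate 3 the list had 2 genes higher and 0 lower at that p, and Notch2 differed by -0.20. Sox9, a ductal factor that responds to Notch, had 138, 138 and 251 CPM against 259, 167 and 277.

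The ductal transcription factors had a median difference of 0.36, and 12 of 18 had higher values in 6S-A. In 8 this held in all 3 pairs, beside 20.4% of all genes and 2791 of the 11076 genes at 5 CPM or more. Ehf had 419, 468 and 503 CPM in WT and 547, 591 and 583 in 6S-A, and Onecut2 ran the other way in replicates 2 and 3 at 378, 1049 and 1063 against 412, 482 and 745. Among 17 ductal keratins and surface markers the median was 0.04. The 1 gene at an unadjusted p of 0.05 was Cd24a (1209, 1105 and 471 CPM against 1596, 1911 and 1702), where 6.42% of all genes had higher values at that p. The 2 most abundant markers overlapped, with Spp1, osteopontin, at 25021, 17326 and 8147 CPM in WT and 20407, 27054 and 21027 in 6S-A, and Lcn2 at 25460, 9534 and 32376 against 14048, 13702 and 15113. Of 15 duct transport genes tested, Atp1b1, a sodium pump subunit, had the smallest p (119, 347 and 219 against 290, 448 and 431 CPM, 0.90 ± 0.31). It was the 1 gene of that list at an unadjusted p of 0.05, beside 6.42% of all genes higher and 5.84% lower. Without no-color WT replicate 3 there were 2, both with higher values in 6S-A. Car2, a carbonic anhydrase, was abundant and overlapped (747, 381 and 417 against 608, 417 and 734 CPM).

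Genes of the cell cycle showed no common direction. The S phase list had medians of -0.48, -0.27 and 0.71 in pairs 1 to 3, and 0 of 20 genes reached an unadjusted p of 0.05. The G2 and mitosis list had medians of 0.13, 0.05 and -0.87, again with 0 of 20. When the no-color libraries were fitted alone with the block, it had 0 genes higher and 4 lower at that p, and 1 passed the threshold. Without replicate 3 in all groups, the S phase list had 0 genes higher and 3 lower at that p. Top2a had 102, 122 and 48.7 CPM in WT and 87.4, 59.7 and 25.7 in 6S-A, and Mcm6, of the replicative helicase, had 115, 98.9 and 33.2 against 124, 93.8 and 77.8. Mcm2, of the same helicase, had 111, 63.9 and 41.0 CPM against 121, 71.9 and 83.0. Gins2, which works with it, had the smallest p of the S phase list (28.4, 20.6 and 17.7 against 14.0, 13.3 and 9.43, with no overlap). Birc5, survivin, and the kinase Cdk1 overlapped (37.2, 30.7 and 15.0 against 26.5, 23.2 and 3.70 CPM, and 155, 71.6 and 30.5 against 88.9, 76.2 and 20.4). Replicate 3 was lowest in both groups for Top2a, and the SE of its difference was 0.93. Of 20 Cdk inhibitors and p53 targets, Ccng1, Pmaip1 and Mdm2 reached an unadjusted p of 0.05 with higher and Bax and Cdkn1b with lower values in 6S-A, beside 6.42% and 5.84% of all genes. This was 0 genes higher and 1 lower without no-color WT replicate 3. The inhibitor Cdkn1a had 425, 436 and 1918 CPM against 397, 378 and 707, and Btg2, a p53 target, had 1336, 834 and 1780 against 1647, 1080 and 1189.

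Immediate early and ERK feedback genes had higher medians in 6S-A in every pair. Their median was 0.46, 0.35 and 0.24 in pairs 1 to 3, and 11 of 21 had higher values in 6S-A in all 3 pairs. All genes at 5 CPM or more had medians of 0.19, 0.01 and 0.16, and 2791 of 11076 were higher in all 3 pairs, so the list was close to them in pair 3. Myc had 212, 169 and 139 CPM in WT and 324, 271 and 429 in 6S-A (0.94 ± 0.28, adjusted p = 0.224). Dusp1 and Dusp6, phosphatases that switch off MAP kinases, had 296, 759 and 472 against 895, 1321 and 1193 CPM and 405, 443 and 126 against 584, 745 and 708 CPM. These 3 genes reached an unadjusted p of 0.05 with no overlap. Jund reached it with lower values in 6S-A, and its groups overlapped (6.51, 27.1 and 42.6 against 3.82, 17.1 and 6.33 CPM). Among all genes 6.42% did so with higher and 5.84% with lower values. Without no-color WT replicate 3 the list had 2 genes higher and 0 lower at that p, and a median of 0.18. Fos and Atf3, the most abundant, had 6796, 2760 and 2090 against 6960, 4318 and 2462 CPM and 2700, 1224 and 835 against 2868, 1544 and 1243 CPM. Both were higher in 6S-A in each pair, and their log2 differences were 0.29 ± 0.30 and 0.31 ± 0.27, or 0.18 and 0.12 without no-color WT replicate 3.

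Wnt response genes had mostly lower values in 6S-A (14 of 18, median -0.26), with medians of 0.10, -0.54 and -0.37 by pair. Lgr5, a stem cell receptor that amplifies Wnt signals, ran against the list, with 51.8, 40.9 and 12.2 CPM in WT and 115, 62.8 and 108 in 6S-A (1.43 ± 0.49, adjusted p = 0.253). Axin2, a feedback inhibitor, had 33.2, 48.6 and 78.1 CPM against 32.4, 25.4 and 24.0, and Ephb3 was the other gene with lower values at an unadjusted p of 0.05 (5.84% of all genes). Without no-color WT replicate 3 the Wnt list had 0 genes at that p in either direction and a median of -0.14, with Lgr5 at 0.89, Axin2 at -0.46 and Ephb3 at -0.39. The adhesion receptor Cd44 and cyclin Ccnd1, the most abundant, overlapped (2141, 2861 and 1391 against 2310, 1881 and 3108 CPM, and 407, 500 and 353 against 437, 294 and 380). In the TGF-beta and BMP list (18 tested, median -0.06), Pmepa1, a TGF-beta feedback gene, had 127, 242 and 369 CPM in WT and 95.7, 98.7 and 112 in 6S-A, and Bambi, a decoy receptor, had 5.61, 3.58 and 11.1 against 13.5, 38.6 and 12.5. Neither of these pairs of groups overlapped, as was so for 7.55% of all genes with 6S-A above and 4.88% with WT above. The list had 1 gene higher and 1 lower at an unadjusted p of 0.05, beside 6.42% and 5.84% of all genes. The BMP targets Id1 and Id2 did (252, 173 and 463 against 262, 238 and 230 CPM, and 500, 538 and 794 against 554, 790 and 830). In the YAP/TEAD list 3 of 16 genes reached an unadjusted p of 0.05, all with higher values in 6S-A, as did 6.42% of all genes, and without no-color WT replicate 3 there were 2. The 3 genes were F3, tissue factor (72.7, 85.5 and 60.4 against 116, 133 and 272 CPM), Ajuba, and Ccn1, a secreted matrix protein (2893, 1221 and 1130 against 4132, 2244 and 2072 CPM), and the groups overlapped for Ccn1, as they did for Ankrd1 (465, 416 and 812 against 555, 406 and 564).

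Inflammatory genes were split. In the NF-kB list (15 of 18 tested, median -0.18) Ccl20 and Nfkbia had lower values in 6S-A, and Icam1 and Nfkbiz had higher values, each at an unadjusted p of 0.05, beside 5.84% lower and 6.42% higher among all genes. When no-color WT replicate 3 was left out, the median was -0.03, with 1 gene lower and 2 higher at that p. Nfkbia, the inhibitor that NF-kB induces, had 869, 570 and 1289 CPM in WT and 466.04, 506 and 381 in 6S-A (-1.02 ± 0.34, adjusted p = 0.233, and -0.59 without no-color WT replicate 3). The chemokine Cxcl5 had 3846, 5634 and 1552 against 3661, 4576 and 3100. Interferon and antiviral genes had pair medians of 0.72, -0.46 and -0.55, so no direction was shared. Rsad2, an antiviral enzyme, and Bst2, tetherin, were at an unadjusted p of 0.05 with lower values in 6S-A. Rsad2 was near the detection limit (1.61, 5.16 and 0 against 0, 0.344 and 0 CPM, -4.26 ± 1.15), and Bst2 had 63.6, 39.2 and 109 against 35.5, 26.6 and 46.0. Without no-color WT replicate 3 the count was 1. The factor Irf1 had 148, 114 and 22.2 against 149, 129 and 69.0 CPM, and B2m had 1286, 696 and 1224 against 627, 1045 and 868 CPM. In the list of unfolded protein and oxidative stress genes, Dnajb9 and Xbp1 were the 2 of 19 at an unadjusted p of 0.05. Both had higher values in 6S-A, as did 6.42% of all genes at that p. Without no-color WT replicate 3, 1 gene was left. Xbp1, a factor of the unfolded protein response and of secretory cells, had 842, 855 and 483 CPM in WT and 2028, 2034 and 1356 in 6S-A (1.31 ± 0.51, adjusted p = 0.314), and its partner chaperone gene Hspa5 had 1057, 1010 and 857 against 1346, 1144 and 1250.

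The signals that the no-color cells themselves could send showed no common direction. Of 27 secreted signalling ligands 25 were tested, with a median of -0.16, which turned to 0.13 without no-color WT replicate 3. At an unadjusted p of 0.05 there were 0 genes higher and 2 lower, and 2 in each direction without that library, beside 6.42% and 5.84% of all genes. Inhba, which codes for activin, had 29.3, 20.7 and 37.7 CPM in WT and 13.3, 12 and 10.7 in 6S-A (-1.17 ± 0.41, adjusted p = 0.253), and Pdgfb was the other gene with lower values at an unadjusted p of 0.05. The EGF receptor ligand Hbegf had 819, 571 and 1535 against 1035, 614 and 733 CPM, and Wnt7b had 135, 152 and 169 against 127, 127 and 98.3. Among matrix genes, Timp3, an inhibitor of metalloproteinases, had 193, 109 and 192 CPM against 417, 258 and 352 (1.08 ± 0.29, adjusted p = 0.224) and Itgb1 also had higher values. These were the 2 genes of that list, of 19 tested, at an unadjusted p of 0.05, where 6.42% of all genes had higher values. There were 3 without no-color WT replicate 3, all with higher values. Fn1 had 1607, 2219 and 1386 against 2476, 2875 and 2165, and Mmp7, matrilysin, had 3517, 1429 and 1435 against 1918, 1184 and 1843. Among metabolic genes, Hk2, the first enzyme of glycolysis, had 98.6, 121 and 316 CPM against 75.7, 65.8 and 53, while Slc2a1, the glucose transporter, and Pfkp had higher values in 6S-A. These 3 of 16 glycolysis and hypoxia genes reached an unadjusted p of 0.05, where 6.42% of all genes were higher and 5.84% lower. When no-color WT replicate 3 was left out, the list had 1 gene higher and 0 lower at that p, with Hk2 at -0.59 and Slc2a1 at 0.58. The abundant glycolytic genes Aldoa and Ldha overlapped (1839, 945 and 939 against 1280, 1368 and 1055 CPM, and 1686, 661 and 367 against 1010, 997 and 699). Sterol and lipid synthesis genes had a median of 0.04 with 0 of 16 at an unadjusted p of 0.05, and Scd2 had 653, 600 and 286 against 525, 401 and 357. Lss, of sterol synthesis, had 82.7, 31.7 and 29.4 against 39.3, 27.8 and 20.1, and Acly, of acetyl-CoA supply, had 206, 212 and 110 against 311, 158 and 197. Of the hormones and secretory granule genes, 13 of 19 were tested and 11 had higher values in 6S-A with a median of 0.19, against 5 and -0.17 when the no-color libraries were fitted alone with the block, and 10 and 0.65 without no-color WT replicate 3. Pcsk1, a prohormone convertase, reached an unadjusted p of 0.05 with higher values at under 1 CPM (0.179, 0 and 0 against 0.463, 0.517 and 0.119 CPM). The granule gene Scg5 did so with lower values, at 4.90, 5.38 and 4.98 CPM in WT and 2.43, 1.72 and 1.19 in 6S-A, while Cpe, a peptide-processing enzyme, overlapped (22.2, 108 and 47.6 against 32.8, 115 and 59.2). Of these granule and hormone genes 1 was higher and 0 lower at that p without no-color WT replicate 3.

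The longer lists of markers of other cell types had few genes tested. A longer mesenchymal list of 13 genes had 4 tested, and Acta2 had 2.39, 1.26 and 4.98 CPM in WT against 0.232, 0.172 and 0.239 in 6S-A (40, 12 and 9 reads against 4, 2 and 2), with no overlap. Without no-color WT replicate 3 Acta2 differed by -2.60, and no gene of the list reached an unadjusted p of 0.05. Vim had 4.72, 115 and 1.66 against 2.26, 57.3 and 0.119, high in replicate 2 of both groups, where it made up most of the list's summed level (7.83, 119 and 6.65 CPM against 3.13, 57.6 and 2.15). Whether a few other cells in the WT pools take part in these differences was not tested. Mucin and goblet genes had a median of -0.54 over the 10 of 15 tested, and -0.11 without no-color WT replicate 3. At an unadjusted p of 0.05 there were 0 genes higher and 1 lower, beside 6.42% and 5.84% of all genes. Without that library 1 was higher and 0 lower. All but Muc1 (1148, 551 and 542 against 967, 535 and 744 CPM) were at low levels. Spdef, a goblet cell factor, had 5.50, 0.527 and 6.09 against 2.20, 0 and 0 CPM. Gkn3, a gastrokine, had 3.29, 3.16 and 23.3 against 11, 23.8 and 1.07. Neural and glial, endothelial, immune and acinar lists had 0 genes at an unadjusted p of 0.05. Their most abundant or leading members stayed low. Egfl7 and Esam, of endothelial cells, ran from 3.94 to 11.7 CPM and from 4.43 to 8.60 CPM over the 6 samples, Csf1r from 0 to 8.63, Bhlha15, an acinar factor, from 0 to 5.27, Tubb3 from 0.211 to 5.61 and S100b from 0.430 to 3.88. Plvap, Cd52 and Gfap stayed under 1 CPM in every sample. The study itself chose 2 lists of potential Ngn3 targets, from its libraries of 2 days and of 8 days. The second is not independent of the samples described here. They had 10 higher and 11 lower of 190 tested (2 days) and 24 higher and 15 lower of 200 tested (8 days) at an unadjusted p of 0.05, where all genes had 6.42% higher and 5.84% lower. The counts were 12 and 7, and 22 and 10, without no-color WT replicate 3.

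**Figure D4:**
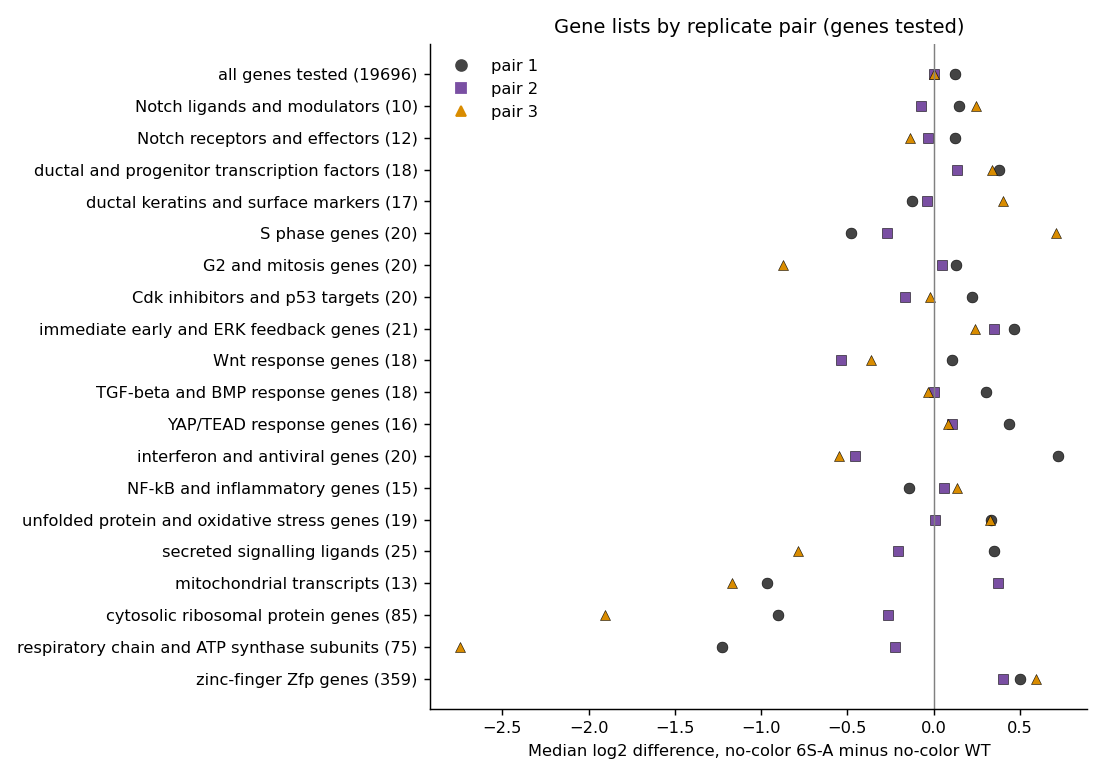
Median log2 difference, no-color 6S-A minus no-color WT, within each of the 3 replicate pairs for gene lists, with the number of genes tested in parentheses. Immediate early and ERK feedback genes lie at 0.24 to 0.46 in all pairs, and respiratory chain genes reach -2.74 in pair 3.

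Some gene families, taken from symbols, were described after the values were seen. The 37 proteasome subunits had a median of -0.14, with 1 higher and 5 lower at an unadjusted p of 0.05. The 68 cullin and F-box genes had a median of 0.30, with 12 higher and 1 lower (6.42% and 5.84% of all genes). The families that follow were those to which leading genes belonged. Of 85 cytosolic ribosomal protein genes, 78 had lower values in 6S-A and 49 reached an unadjusted p of 0.05 in that direction (5.84% of all genes did so), with medians of -0.90, -0.26 and -1.91 in pairs 1 to 3. Their summed level was 18587, 14516 and 57538 CPM in WT and 11394, 12501 and 18062 in 6S-A, so WT replicate 3 was far above the others. Of 75 respiratory chain and ATP synthase subunits, 66 had lower values in 6S-A and 58 reached an unadjusted p of 0.05, with medians of -1.23, -0.22 and -2.74 and summed levels of 14257, 9937 and 42334 CPM in WT against 9295, 9406 and 11922 in 6S-A. Both families kept the sign without no-color WT replicate 3, at smaller medians of -0.69 and -0.84 and with 30 and 40 genes at that p. Many members have processed pseudogenes, so reads may be split between copies. The 359 genes named Zfp, zinc-finger proteins that mostly repress transcription, ran the other way. Of these, 272 had higher values in 6S-A, 65 higher and 1 lower reached an unadjusted p of 0.05 (6.42% and 5.84% of all genes), and in 76 every 6S-A sample lay above every WT sample, as was so for 7.55% of all genes. Without no-color WT replicate 3 the counts were 43 and 1 and the median was 0.52. Their medians were 0.50, 0.40 and 0.59 by pair, and their summed level was 5839, 7283 and 5964 CPM in WT and 8081, 8933 and 7797 in 6S-A, with no overlap. Of the 13 mitochondrial transcripts, 9 had lower values in 6S-A, with medians of -0.97, 0.37 and -1.17. The share given above, over 37 mitochondrial genes and without TMM, was higher in WT in each pair. These 13 transcripts summed to 33670, 21669 and 20522 CPM in WT and 22700, 31490 and 33577 in 6S-A, higher in 6S-A in pairs 2 and 3. Their fitted median was -0.90, and -0.37 without no-color WT replicate 3. At an unadjusted p of 0.05 were 3 (2 without that library), all with lower values and all subunits of complex I: mt-Nd6 (255, 473 and 680 against 152, 344 and 236 CPM), mt-Nd2 (1148, 1201 and 2222 against 465.98, 1079 and 933) and mt-Nd3 (2.51, 3.16 and 44.3 against 0.811, 3.01 and 0.597). The most abundant were mt-Cytb (11508, 6013 and 6498 against 6892, 9321 and 9891 CPM) and mt-Co1, which had 8456, 5718 and 3154 against 7687, 8855 and 11136 CPM.

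These differences moved with the length of the genes, most of all at short lengths. Among genes at 5 CPM or more, the 641 with merged exons under 1000 bases had a median log2 difference of -0.87, and 39.3% of them had lower values in 6S-A at an unadjusted p of 0.05, against 1.56% with higher values. For the 4114 genes of 4000 to 8000 bases the median was 0.19, with 4.03% lower and 12.9% higher. Longer genes did not continue the trend, since the median was 0.20 at 2000 to 4000 bases and 0.07 at 8000 bases or more, where it was -0.14 in pair 2. In the shortest class the median was -0.89 in pair 1, -0.11 in pair 2 and -1.48 in pair 3, so the trend was slight in pair 2 and was not confined to the pair with WT replicate 3. In GFP-positive cells the same class had medians of -0.62, -0.07 and 0.30. Zfp genes at 5 CPM or more of 4000 to 8000 bases (131 genes) had a median of 0.57, where all genes of that length had 0.19. When the trend of each sample with exon length was removed, an analysis chosen after seeing the data, 0 genes passed in the fit of all groups, the ribosomal and respiratory medians were -0.96 and -1.21, that of the Zfp genes was 0.39, and that of the mitochondrial transcripts was 0.01. Scaling to spike-in totals moved the median of all genes from 0.04 to 0.53. On that scale the ribosomal and respiratory medians were -0.40 and -0.80, with 5 and 11 genes lower at an unadjusted p of 0.05, both below that of all genes, the Zfp median was 1.00, and the mitochondrial transcripts stood at -0.01. The part of transcript integrity and of library preparation in these differences was not tested.

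**Figure D5:**
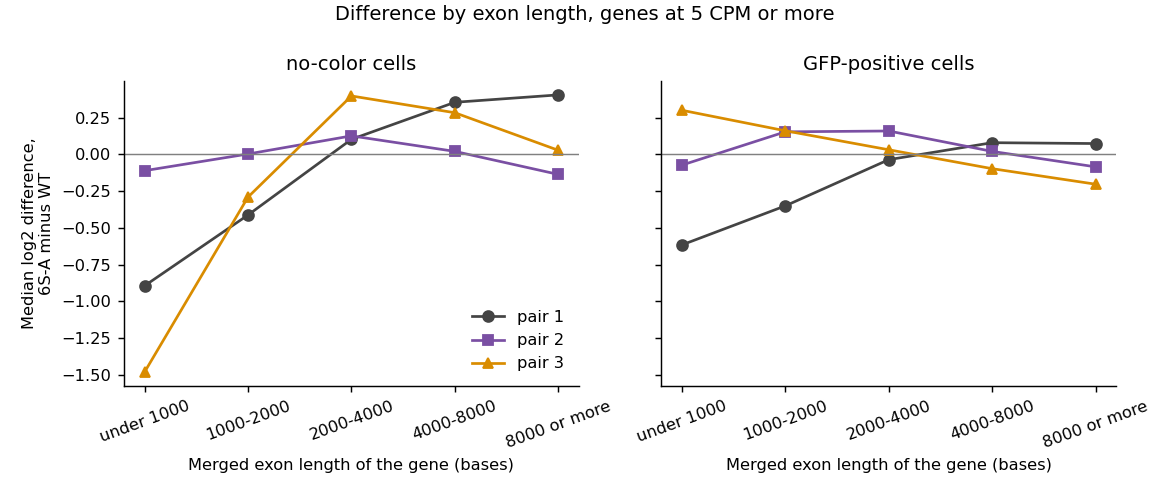
Median log2 difference, 6S-A minus WT, by merged exon length of the gene, for each replicate pair of no-color cells and of GFP-positive cells, over genes at 5 CPM or more. In no-color cells the shortest genes lie at -0.89, -0.11 and -1.48, and in GFP-positive cells at -0.62, -0.07 and 0.30.

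The same contrast in the GFP-positive cells was set beside that of the no-color cells to see whether the 2 differ. The test of the difference of differences gave 0 of 19696 genes at an adjusted p of 0.05 (edgeR) and 960 at an unadjusted p of 0.05 (4.87%), and DESeq2 gave 14. In GFP-positive cells alone, 0 genes passed and 551 (2.8%) reached an unadjusted p of 0.05. Among the genes with the smallest p of the difference, Zfp719 differed by 1.56 in no-color and by -0.36 in GFP-positive cells (difference -1.92 ± 0.43, adjusted p = 0.894), Zfp867 by 2.19 and -0.20, and Ggta1, a glycosyltransferase of the Golgi, by 1.36 and -0.82. In the other direction stood Zfand2b (-0.89 and 0.66), Ndufb2, a respiratory subunit (-2.05 and 0.71) and Cd177 (-0.87 and 4.0), which was near the detection limit in no-color cells at 0 to 2.43 CPM. Ccl20 had almost the same difference in both kinds of cells, -1.93 in no-color and -1.89 in GFP-positive cells, with a difference of 0.04 ± 0.66.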

How the data were processed

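The authors deposited 1 table of read counts per gene, in unit counts without normalization, made per the labels with GSNAP and HTSeq 0.5.3p3 on mm10 and Ensembl 81 from single-end Smart-seq2 libraries. Of the reads in the 12 no-color libraries, those not aligned (16.7% to 36.0%), without a feature (6.12% to 13.0%) or ambiguous (5.36% to 15.8%) stayed out of library sizes and tests. The line for reads with several alignments is 0 throughout. All 12 passed the study's limits (at least 1000000 gene reads and 10000 genes, with spike-ins below 30%), and 1 of the 11 GFP-positive libraries of 8 days did not and was left out. Technical repeats were summed. Genes detected in at least 5 retained libraries of 8 days with a variance above 0 were tested (19696 of 46078). Groups were compared with edgeR's quasi-likelihood test (edgeR 4.0.16, TMM, robust, Benjamini-Hochberg, threshold 0.05) over the 4 groups of 8 days, with the replicate number as a block. Same-numbered no-color samples deviated together (correlations of 0.356, 0.148 and 0.179, against -0.208 to 0.014 for different numbers), so the numbers were taken to pair the samples, although the labels do not say what a number stands for. Reads carry no molecular identifiers, so limits set by a count of 3 reads cover counting error only. P-values measure the spread between these samples only. Log2 CPM used a prior count of 2. Exon lengths, from GENCODE M21, were found for 99.46% of tested genes.

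Genes named are Neurog3 and 6 genes of its program, the 10 with the smallest p in each direction, the member with the smallest p and the 2 most abundant of each list, and the 3 with the smallest p in each direction of the difference of differences. Gene models and pseudogenes were passed over. Further list members at an unadjusted p of 0.05 were named after their values were seen. The members and lists were chosen with earlier results of these data known. The counting is not stated to use strand, so reads of Cog1, Hspe1, Uqcrb and Pip4k2b, which overlap antisense genes, may be shared. Alternatives were no block, no-color libraries alone, other scalings (DESeq2, scran and spike-in size factors), other filters, DESeq2's Wald test, all libraries or the first technical repeat, and leaving out replicates. Fits with the exon-length trend removed, and fits of the no-color libraries alone without a replicate, were added after seeing the data, as were the families taken from gene symbols. The test was checked on simulated data. The results for 2 members of the lists are not reported here.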

Additional observations from a re-analysis of the deposited data

Results flagged for a closer look

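In the group of 6 no-color WT libraries, the single library of replicate 3 lay far above the others in 2 measures. Its share of reads not aligned was 35.96%, and the next highest library had 24.40%. Its mitochondrial share of reads on genes was 17.87%, and the next highest had 9.14%. In all, 16 library measures were examined in this way. Chance alone puts about 1 in 20 groups of independent values past the limit. That rate does not hold strictly here, since the 6 libraries include technical repeats of 3 replicates. The part of this library in the differences between groups was not tested beyond the values given without it.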

How the results depend on the processing

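The count of genes between the no-color groups, 0 in the fit of all groups, was 271 (85 higher, 186 lower in 6S-A) with the no-color libraries alone and the replicate block, 586 (189 and 397) with DESeq2's Wald test, and 538 (181 and 357) with no filter but at least 1 read. Without the block it was 0 in both sets of libraries. Leaving out samples from the fit of all groups gave 0 to 631, with 1 without replicate 1 in all groups, 103 (1 and 102) without replicate 2 in all groups, and 631 (193 and 438) without no-color WT replicate 2. In fits added after seeing the data, the no-color libraries alone gave 16 without replicate 1, 276 (30 and 246) without replicate 2 and 38 (31 and 7) without replicate 3, and 16 with the exon-length trend removed. The difference between the 6S-A and WT contrasts of GFP-positive and of no-color cells, 0 genes, was 14 with DESeq2, 65 with no filter, and 0 to 1 when samples were left out, with 1 without replicate 2 in all groups. For all these the cause was not tested. The fit of the no-color libraries alone and DESeq2 shared 224 calls. Neurog3 in GFP-positive against no-color cells kept its direction and call, at 5.01 to 6.65, and was 5.51 with no replicate block. Depth limits genes under 1 CPM, where the 95% interval reached a median of 15.4-fold to either side.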

Other observations

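The fit of the no-color libraries alone with the exon-length trend removed called 16 genes, and those named here were chosen from them after their values were seen. Crp, C-reactive protein, had 59.9, 44.6 and 18.8 CPM in WT and 113, 180 and 133 CPM in 6S-A, and its libraries did not overlap (18.3 to 81.8 against 89.3 to 200 CPM). Hp, haptoglobin, had 83.1, 73.9 and 30.5 CPM in WT and 147, 327 and 83.7 in 6S-A. Steap4, a metalloreductase, had 44.2, 66.9 and 21.0 CPM in WT and 133, 153 and 134 in 6S-A, and Cldn8, a claudin, had 45.4, 11.4 and 11.1 against 78.3, 68.0 and 71.9. Pglyrp1, a peptidoglycan recognition protein, was on the other side, with 574, 233 and 688 CPM in WT and 158, 124 and 133 in 6S-A. Spink4 had 86.0, 69.8 and 321 CPM against 19.5, 7.83 and 36.9. In the fit of all groups, the adjusted p was 0.224 for Crp, Cldn8 and Pglyrp1, 0.684 for Hp, 0.325 for Steap4 and 0.463 for Spink4 (edgeR).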
